A study of Mus musculus with 6 samples.

Results

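Netrins are secreted, laminin-related guidance cues, and the genes described here are 3 netrins (*Ntn1*, *Ntn3* and *Ntn4*) with 6 of their receptors, *Dcc*, its relative *Neo1* (neogenin) and the UNC5 receptors *Unc5a*, *Unc5b*, *Unc5c* and *Unc5d*. They were chosen by gene symbol as a ligand and receptor family, with earlier results of these data known. The 9 were found among the 55357 genes of the count files. All 9 passed the filter on low counts, which asked for 6 reads or more in any 1 of the libraries and left 21876 genes to be tested. The data were 6 RNA-seq libraries of wild-type mouse primary neuronal cultures, prepared by the study from cortex and hippocampus of embryos at embryonic day 18. In the shCtrl group, 3 cultures had received at DIV4 (day in vitro 4) a lentivirus with a scrambled short hairpin RNA (shRNA), and in the sh*Pla2g4e* group, 3 cultures had received a lentivirus with the sh2 shRNA against *Pla2g4e*, the gene of a phospholipase of group IV with N-acyltransferase activity. Both groups were collected at DIV14. The knockdown rests on a single shRNA, the cultures hold several cell types, and the labels do not say that libraries of a group came from separate preparations, so that p-values measure the spread between these libraries only.

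DCC is a receptor of the immunoglobulin superfamily that draws growth cones towards netrin-1, and in cortical neurons it is known for axon branching and synapse formation. UNC5 receptors turn the response to netrin into repulsion, alone or in a complex with DCC, and neogenin binds both netrins and the repulsive guidance molecules (RGMs). DCC and the UNC5 receptors are also known as dependence receptors, which signal for cell death when they have no ligand.

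The sh2 guide and its matches in these transcripts are shown first, because bases 2 to 8 of a guide (the seed) can pair with mRNAs other than the target. The guide strand is the reverse complement of the 19-base target in exon 11 of the 20 exons of *Pla2g4e*, in the coding sequence (minus strand, chr2:120182753-120182771, GRCm38). Capitals mark the seed in the guide. Each sequence reads 5′ to 3′.

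sh2 guide strand: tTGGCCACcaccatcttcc

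sh2 target in *Pla2g4e*: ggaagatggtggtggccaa

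The 7 bases that pair with the seed are GTGGCCA. On the sense strand of the longest coding transcript (GENCODE vM21, GRCm38), 6 of the 9 genes held this match at least once, against 36.7% of the 15816 tested genes with a coding transcript. These transcripts of the 9 genes had 3646 to 10323 bases, and the shares over all genes were not matched for length. The match lay in the coding sequence of *Dcc* (1), *Ntn4* (1), *Unc5a* (3), *Unc5b* (2) and *Unc5d* (1), a region in which 25.4% of all 15816 genes held it. It lay in the 3′ UTR of *Ntn4* (1) and *Unc5c* (1), where 13.3% of genes held it. Not every annotated coding transcript of these genes held a match. The 3′ UTR match was in 1 of 2 transcripts of *Ntn4* and 1 of 3 of *Unc5c*, and 2 of 4 transcripts of *Unc5a* held any match. *Neo1*, *Ntn1* and *Ntn3* held none in any of their annotated coding transcripts. A match is a description of letters and does not show that the guide binds. The sites outside *Dcc* are given here with 11 bases on either side and the match in capitals, so that they can be set beside the changes of the same genes.

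*Ntn4*, coding sequence, exon 2 of 10, chr10:93644573-93644579, plus strand: agacacaatgtGTGGCCAgaacgccaccg

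*Ntn4*, 3′ UTR, exon 10 of 10, chr10:93746312-93746318, plus strand: gtgtgctgcgtGTGGCCAtcggtgtgcgg

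*Unc5a*, coding sequence, exon 1 of 16, chr13:54949682-54949688, plus strand: cggcccggcctGTGGCCAgcgctcctggg

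*Unc5a*, coding sequence, exon 2 of 16, chr13:54990900-54990906, plus strand: agagtgccacaGTGGCCAacccagtgcct

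*Unc5a*, coding sequence, exon 5 of 16, chr13:54996527-54996533, plus strand: actacacctgcGTGGCCAagaacatcgtg

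*Unc5b*, coding sequence, exon 5 of 17, chr10:60778835-60778841, minus strand: actacacctgtGTGGCCAagaatatcgtg

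*Unc5b*, coding sequence, exon 5 of 17, chr10:60778820-60778826, minus strand: ccaagaatatcGTGGCCAagcgccggagc

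*Unc5c*, 3′ UTR, exon 16 of 16, chr3:141833896-141833902, plus strand: cctgatgacccGTGGCCAtggtgactgtc

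*Unc5d*, coding sequence, exon 5 of 18, chr8:28761735-28761741, minus strand: cagccaacatcGTGGCCAagaggaggagc

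Some of the exon 5 sites also resembled each other beyond the match. The exon 5 site of *Unc5a* and the upstream site of *Unc5b* were identical at 20 of the 22 bases outside the 7-base match that chose them, and the downstream site of *Unc5b* and the site of *Unc5d* at 14 of these 22. Sites of paralogs that share sequence in this way are not independent of each other.

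In sh*Pla2g4e* cultures 6 of the 9 transcripts were down-regulated, *Dcc*, *Unc5d*, *Ntn4*, *Neo1*, *Unc5a* and *Unc5c*, and none was up-regulated. *Dcc* showed the largest decrease, with 49.6% of its shCtrl level left, and *Unc5c* the smallest of the 6, with 74.2% left. *Ntn1*, *Ntn3* and *Unc5b* did not pass the test, so that 5 of 6 receptors and 1 of 3 netrins were called. Calls are adjusted p-values under 0.01 from edgeR's quasi-likelihood test with Benjamini-Hochberg adjustment over all genes tested. By that rule 4.00% of all genes were called lower, and 7.61% of the 10908 genes whose log2 CPM averaged 3 or more (the better expressed genes), a group that holds 8 of the 9 genes (*Ntn3* lies just outside it). The groups did not overlap for 7 of the 9, all lower in sh*Pla2g4e*, as for 14.6% of all genes tested. This last share was not worked out for the better expressed genes alone. The median log2 fold change of the 9 was −0.48, against 0.03 over all genes tested and −0.02 over the better expressed genes. Because the 9 genes were chosen with earlier results known, these shares and medians are descriptions and not a test of the family. In every setting tried, including scaling by library size alone, which moved the median of all genes to 0.10, all 9 estimates were below 0. In bulk libraries fewer cells of a type and less RNA per cell cannot be told apart.

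**Figure D1:**
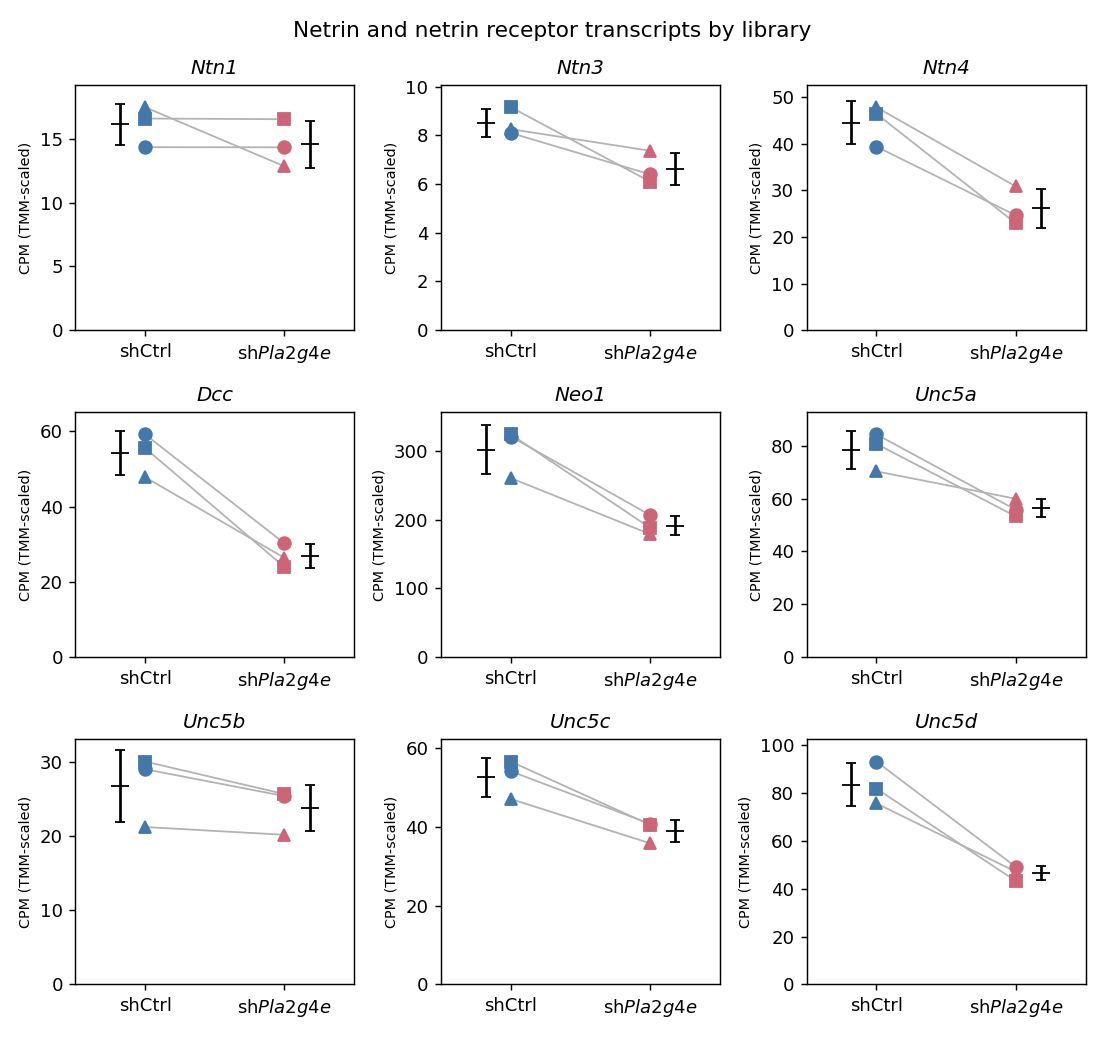
Level of each transcript in each library, in TMM-scaled CPM (reads relative to the library's size), for shCtrl (blue) and sh*Pla2g4e* (red); circles, squares and triangles are the libraries numbered 1, 2 and 3, grey lines join libraries of the same number, and black bars give the mean ± SD of 3 libraries. The groups overlap for *Ntn1* and *Unc5b* and for no other gene, and the shCtrl library numbered 3 is the lowest of its group for the 6 receptors.

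The libraries held 17054717 to 23570180 counted reads, and the 9 genes 129 to 6612 reads each per library. *Pla2g4e* had 38.0, 35.1 and 35.4 CPM in shCtrl and 21.8, 14.1 and 18.7 CPM in sh*Pla2g4e* libraries 1 to 3, and the groups did not overlap (edgeR log2 fold change −0.99 with an adjusted p = 1.24e-04). Defining neuronal markers were present throughout, with *Map2* at 1120.1 to 1661 CPM. Microglial markers summed to 3.07 to 7.73 CPM in shCtrl and 2.59 to 4.02 CPM in sh*Pla2g4e* libraries, *C1qa* reaching 3.20 CPM, and endothelial and mural markers to 22.3 to 28.9 and 25.0 to 36.3 CPM, *Kdr* reaching 7.54 and *Pdgfrb* 18.8 CPM. Of these markers *Tmem119* and *Cldn5* did not reach 6 reads in any library, and *Aif1* and *Pecam1* stayed at or below 1.14 CPM. Astrocyte markers were present, *Gfap* at 338 to 801 CPM.

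Of the 3 netrins *Ntn4* was called and the other two were not. *Ntn4* (chromosome 10, 93476543 to 93583069, plus strand, GRCm39), which encodes a netrin of basement membranes, had 39.4, 46.5 and 47.9 CPM in shCtrl libraries 1 to 3 and 24.6, 22.9 and 30.9 CPM in sh*Pla2g4e* libraries 1 to 3. All sh*Pla2g4e* libraries lay below all shCtrl libraries, and 58.7% of the level was left. Its log2 fold change was −0.77 (standard error 0.12, 95% interval −1.02 to −0.53, adjusted p = 3.59e-04 in edgeR). The call held in each of the 6 fits that left out 1 library, with a log2 fold change between −0.91 and −0.69.

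Astrocyte markers differed between the groups too, in both directions. The summed level of the 7 astrocyte markers was 2551, 2932 and 3274 CPM in shCtrl libraries 1 to 3 and 1856, 1729 and 2739 CPM in sh*Pla2g4e* libraries 1 to 3, so that the libraries of each group had the same order as for *Ntn4*, while the groups overlapped. Of the 7, *Aqp4* (log2 fold change −1.19), *Gja1* (−0.66) and *Slc1a2* (−0.50) were down-regulated and none was up-regulated. *S100b*, the marker with the lowest level, had 1.46, 1.26 and 2.398 CPM in shCtrl and 3.22, 4.81 and 3.09 CPM in sh*Pla2g4e* libraries, higher without overlap (log2 fold change 1.11), and missed the threshold (adjusted p = 0.0211 in edgeR). *Aldh1l1* had a log2 fold change of 0.19. With the replicate block 5 of the 7 were down-regulated, *Gfap* (−0.64) and *Slc1a3* (−0.26) being added, and *S100b* was up-regulated (adjusted p = 9.63e-04 in edgeR). The part of astrocytes in the difference of *Ntn4* was not tested.

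*Ntn1* (chromosome 11, 68100190 to 68291649, minus strand), the netrin best known as a ligand of DCC, had 14.4, 16.6 and 17.5 CPM in shCtrl and 14.3, 16.6 and 12.9 CPM in sh*Pla2g4e* libraries. The groups overlapped, and the libraries numbered 1 and 2 differed by less than 0.01 on the log2 scale between the groups (−0.0013 and −0.0048), whereas the libraries numbered 3 differed by −0.44. The log2 fold change was −0.15, with a 95% interval of −0.43 to 0.14 (adjusted p = 0.552 in edgeR). A decrease as large as that of *Ntn4* lies outside this interval. Leaving out 1 library moved the value between −0.25 (without sh*Pla2g4e* replicate 2) and −0.07 (without replicate 3 of that group), and no such fit called it.

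*Ntn3* (chromosome 17, 24422822 to 24428505, minus strand) had 8.10, 9.16 and 8.26 CPM in shCtrl and 6.40, 6.10 and 7.37 CPM in sh*Pla2g4e* libraries. The groups did not overlap, but the difference did not pass the test (log2 fold change −0.36, 95% interval −0.70 to −0.03, adjusted p = 0.158 in edgeR). *Ntn3* had 129 to 186 reads per library, the fewest of the 9 genes. Of its exon bases, 1.74% lie in another gene on the same strand and 2.72% in a gene on the opposite strand.

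Of the receptors, *Dcc* (chromosome 18, 71386705 to 72484140, minus strand) showed the largest decrease. It had 59.2, 55.6 and 47.8 CPM in shCtrl and 30.2, 23.9 and 26.4 CPM in sh*Pla2g4e* libraries 1 to 3. Every sh*Pla2g4e* library lay below every shCtrl library by a wide margin, the highest of the former being at 30.2 CPM and the lowest of the latter at 47.8 CPM. The log2 fold change was −1.01 (standard error 0.11, 95% interval −1.24 to −0.78, adjusted p = 1.61e-05 in edgeR), which placed *Dcc* at rank 108 of all genes by p. Between libraries of the same number the differences were −0.97, −1.21 and −0.85.

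*Neo1* (chromosome 9, 58781970 to 58943724, minus strand), with the most reads of the 9 genes, had 320.8, 324 and 260.4 CPM in shCtrl and 207, 188 and 179 CPM in sh*Pla2g4e* libraries. No sh*Pla2g4e* library reached the lowest shCtrl library, and 63.4% of the level remained. This gave a log2 fold change of −0.66 (standard error 0.094, 95% interval −0.86 to −0.46, adjusted p = 2.38e-04 in edgeR). Its transcript is the only one of the 6 down-regulated genes that holds no GTGGCCA.

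Of the 4 UNC5 receptors 3 were down-regulated. *Unc5d* (chromosome 8, 29136745 to 29709664, minus strand), a receptor known from upper-layer cortical neurons, had 93.0, 81.7 and 75.6 CPM in shCtrl and 49.1, 43.2 and 47.1 CPM in sh*Pla2g4e* libraries. The groups lay far apart, with a log2 fold change of −0.84 (standard error 0.093, 95% interval −1.04 to −0.65, adjusted p = 2.10e-05 in edgeR) and 55.7% of the level left. The libraries numbered 1 and 2 both differed by −0.92, those numbered 3 by −0.68.

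*Unc5a* (chromosome 13, 55097224 to 55153831, plus strand), a receptor restricted largely to neurons, had 84.3, 80.7 and 70.3 CPM in shCtrl and 55.8, 53.3 and 59.9 CPM in sh*Pla2g4e* libraries. All sh*Pla2g4e* libraries were the lower ones, but the libraries numbered 3 lay closer together (a log2 difference of −0.23) than those numbered 1 and 2 (−0.59 and −0.60). The log2 fold change was −0.48 (standard error 0.089, 95% interval −0.67 to −0.29, adjusted p = 0.00196 in edgeR). This call did not hold in 4 of the 6 fits that left out 1 library. The adjusted p was 0.0123 without shCtrl replicate 1, 0.0173 without shCtrl replicate 2, and 0.0126 and 0.0102 without sh*Pla2g4e* replicates 1 and 2, with log2 fold changes from −0.55 to −0.42 over the 6 fits. These fits held no replicate block. With the block and all libraries the call was kept (adjusted p = 9.52e-07 in edgeR).

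*Unc5c* (chromosome 3, 141170977 to 141540685, plus strand), a receptor known from the repulsion of axons and from cerebellar development, had 54.1, 56.6 and 47.1 CPM in shCtrl and 40.8, 40.5 and 35.8 CPM in sh*Pla2g4e* libraries. The lowest shCtrl library lay above the highest sh*Pla2g4e* library, and the differences within numbers were similar (−0.41, −0.48 and −0.39). The log2 fold change was −0.43 (standard error 0.095, 95% interval −0.63 to −0.23, adjusted p = 0.00689 in edgeR). It was the least secure of the 6 calls. The adjusted p was 0.0280 without shCtrl replicate 1, 0.0552 without shCtrl replicate 2, and 0.0190, 0.0134 and 0.0184 when sh*Pla2g4e* replicates 1, 2 and 3 were left out, and the call was kept only without shCtrl replicate 3. It was also lost with upper-quartile scaling (adjusted p = 0.0116) and with scaling by library size alone (0.0196). None of these fits held the replicate block. With the block and all libraries the call was kept (adjusted p = 2.81e-05 in edgeR).

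*Unc5b* (chromosome 10, 60598372 to 60667360, minus strand), known from blood vessels as well as from neurons, had 29.0, 30.0 and 21.2 CPM in shCtrl and 25.4, 25.7 and 20.2 CPM in sh*Pla2g4e* libraries. Here the groups overlapped, since the shCtrl library numbered 3 was lower than 2 of the sh*Pla2g4e* libraries. The log2 fold change was −0.17 (95% interval −0.46 to 0.12, adjusted p = 0.497 in edgeR). It was −0.31 when shCtrl replicate 3 was left out and −0.07 when sh*Pla2g4e* replicate 3 was, the ends of the range over fits that leave out 1 library, and *Unc5b* was called in none of them. The 95% intervals of *Dcc* and *Unc5d* lay wholly below that of *Unc5b*, but the difference between these genes was not itself tested.

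**Figure D2:**
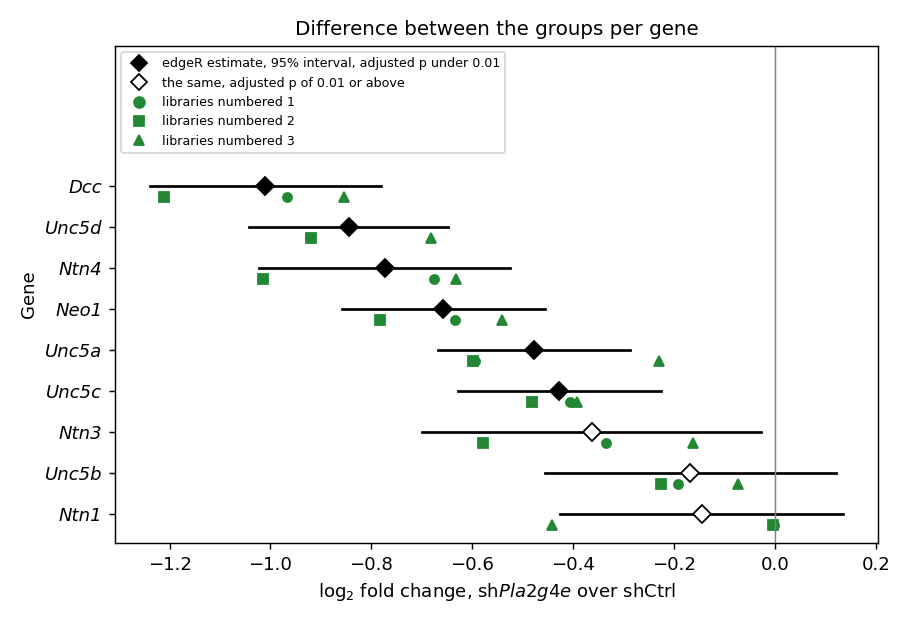
Log2 fold change of each gene, sh*Pla2g4e* over shCtrl; diamonds are edgeR estimates with their 95% intervals (filled where the adjusted p was under 0.01), and green symbols below them are the log2 ratios of libraries with the same number. The estimates run from −1.01 for *Dcc* to −0.15 for *Ntn1*, and no green symbol lies above 0.

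The shCtrl library numbered 3 was the lowest of its group for all 6 receptors and the highest for *Ntn1* and *Ntn4*. The same library had the lowest summed level of the 8 neuronal markers in its group (4966 CPM against 5220 and 5379) and the highest of the astrocyte markers. Between the groups the neuronal sum was 4966 to 5379 CPM in shCtrl and 4446 to 4786 CPM in sh*Pla2g4e* libraries, without overlap. *Map2* averaged 1638 CPM in shCtrl and 1196 CPM in sh*Pla2g4e* libraries, *Tubb3* 304 and 94.9 CPM, and *Snap25*, which was higher, 966 and 1156 CPM. The decrease in the sum was thus not shared by all 8 markers. *Snap25* (log2 fold change 0.26), *Syn1* (−0.04), *Syp* (−0.09) and *Stmn2* (−0.19) did not pass the test. Of the 8 neuronal markers 3 were down-regulated, *Tubb3* (log2 fold change −1.68), *Map2* (−0.45) and *Rbfox3* (−0.41), and 1 was up-regulated, *Nefl* (0.48), which shares 32.8% of its exon bases with a gene on the opposite strand. Of the 5 markers of excitatory neurons 2 were down-regulated, *Slc17a7* (−1.31) and *Neurod6* (−0.47), and 1 was up-regulated, *Slc17a6* (0.91), a call that DESeq2 did not make and limma after voom did, while *Tbr1* and *Camk2a* had 0.08 and 0.02 without passing the test. Of the 6 markers of GABAergic neurons 2 were down-regulated, *Lhx6* (−0.93) and *Slc32a1* (−0.64), and *Gad1* and *Gad2* had −0.19 and −0.28 without passing the test. Of the 8 markers of cortical layers, *Cux1* was down-regulated (−0.46) and *Rorb* was up-regulated (0.46). None of the 5 hippocampal markers was called by edgeR, DESeq2 or limma after voom, and 1, *Neurod2*, was higher at an unadjusted p under 0.05 (log2 fold change 0.35) and was up-regulated with the replicate block (adjusted p = 1.64e-04 in edgeR). Of the 6 markers of progenitors and dividing cells, *Top2a* was down-regulated (−1.001). None of the 8 oligodendrocyte lineage markers, 5 microglial markers and 7 endothelial and mural markers that were tested was called by edgeR, DESeq2 or limma after voom. At an unadjusted p under 0.05 in edgeR 1 oligodendrocyte marker was lower, 2 microglial markers were lower and 1 higher, and 2 endothelial and mural markers were higher. Many genes pass this cut, since the microglial marker *Csf1r*, with an unadjusted p = 0.0475 in edgeR, stood at rank 5523 of the 21876 genes tested. With the replicate block *Olig2*, an oligodendrocyte lineage factor, was down-regulated (−0.37), and *Kdr*, the endothelial VEGF receptor, and *Col1a1*, a fibrillar collagen gene, were up-regulated (1.21 and 1.14). The block also called *Gad2* and *Mki67* lower and *Snap25* higher, and raised the cortical layer markers called lower from 1 to 3. DESeq2 called 2 markers lower in each of the astrocyte, cortical layer and progenitor lists, against 3, 1 and 1 in edgeR. What these markers contribute to the differences in receptors was not tested.

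Levels of different genes are compared here as CPM per kb of exon, since longer transcripts give more reads. The length counts all annotated exons of a gene, 19135 bases for *Unc5c* and 13171 for *Dcc*. Their longest coding transcripts have 9646 and 10323 bases. The order of genes, the receptor shares and the ratios between receptors given below therefore depend on this choice of length. In shCtrl cultures *Neo1* was the most abundant at 34.6 ± 4.10 CPM per kb (SD, n = 3), followed by *Unc5a* (18.8 ± 1.74), *Ntn4* (11.9 ± 1.21) and *Unc5d* (9.05 ± 0.96). *Unc5b* (4.28 ± 0.77) and *Dcc* (4.11 ± 0.44) came next, and their libraries overlapped, as did those of *Unc5c* (2.75 ± 0.26) and *Ntn1* (2.57 ± 0.26). *Ntn3* was lowest (1.66 ± 0.11). All other neighbours in this order were separated by more than their spread.

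In sh*Pla2g4e* cultures the leading 5 genes kept their order, at 21.9 ± 1.62 (*Neo1*), 13.5 ± 0.81 (*Unc5a*), 6.99 ± 1.11 (*Ntn4*), 5.04 ± 0.32 (*Unc5d*) and 3.79 ± 0.49 CPM per kb (*Unc5b*). On this scale *Dcc* stood at 2.04 ± 0.24 CPM per kb, beside *Unc5c* (2.04 ± 0.15) and *Ntn1* (2.32 ± 0.30), whose ranges it overlapped. In CPM without a length *Unc5c* (35.8 to 40.8) lay above *Dcc* (23.9 to 30.2). The same order holds with the longest coding transcripts, of which that of *Unc5c* is the shorter. *Unc5b* and *Dcc* overlapped in shCtrl cultures, and in sh*Pla2g4e* cultures every library of *Unc5b* (3.22 to 4.10) lay above every library of *Dcc* (1.82 to 2.30).

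**Figure D3:**
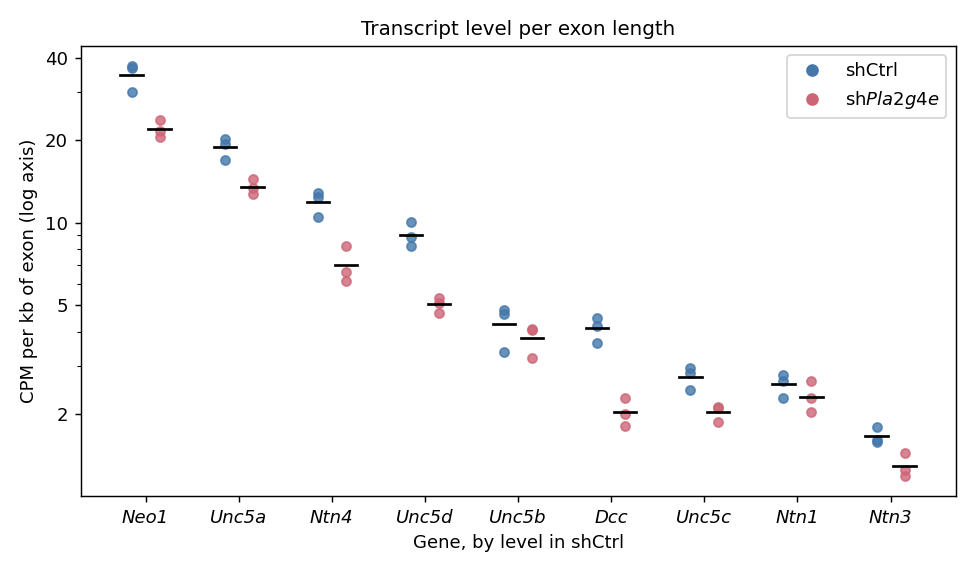
Transcript level per kb of exon (CPM per kb, log axis) of the 9 genes, ordered by their mean in shCtrl; points are libraries and black lines the means of 3. On this scale, which uses all annotated exons of a gene, *Dcc* stands beside *Unc5b* in shCtrl (blue) and beside *Unc5c* and *Ntn1* in sh*Pla2g4e* (red).

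The make-up of the receptor transcripts was described on the same scale, without a test, because it combines genes that were chosen together. The 6 receptors summed to 73.6 ± 8.01 CPM per kb in shCtrl and 48.4 ± 2.19 CPM per kb in sh*Pla2g4e* cultures. The share of *Dcc* in this sum was 5.68%, 5.45% and 5.64% in shCtrl and 4.51%, 3.86% and 4.25% in sh*Pla2g4e* libraries 1 to 3. The share of *Unc5d* was likewise lower in every sh*Pla2g4e* library (10.4% ± 0.45 against 12.3% ± 0.74). Shares of *Unc5a* (25.6% ± 0.58 in shCtrl and 28.0% ± 2.24 in sh*Pla2g4e*), *Unc5b* (5.78% ± 0.48 and 7.84% ± 0.94) and *Unc5c* (3.74% ± 0.14 and 4.22% ± 0.26) were higher in every sh*Pla2g4e* library, although no UNC5 transcript was up-regulated. *Neo1* took 46.99% ± 0.91 and 45.3% ± 1.56, and its libraries overlapped.

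The UNC5 receptors together stood at 8.41, 8.53 and 8.51 times the level of *Dcc* in shCtrl libraries and at 10.8, 13.0 and 12.3 times in sh*Pla2g4e* libraries. The former ratio varied little between libraries (SD 0.067), and all 3 sh*Pla2g4e* libraries lay above it. Among the netrins, *Ntn4* made up 73.7% ± 0.65 of the summed level per kb in shCtrl and 65.6% ± 4.39 in sh*Pla2g4e* cultures.

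**Figure D4:**
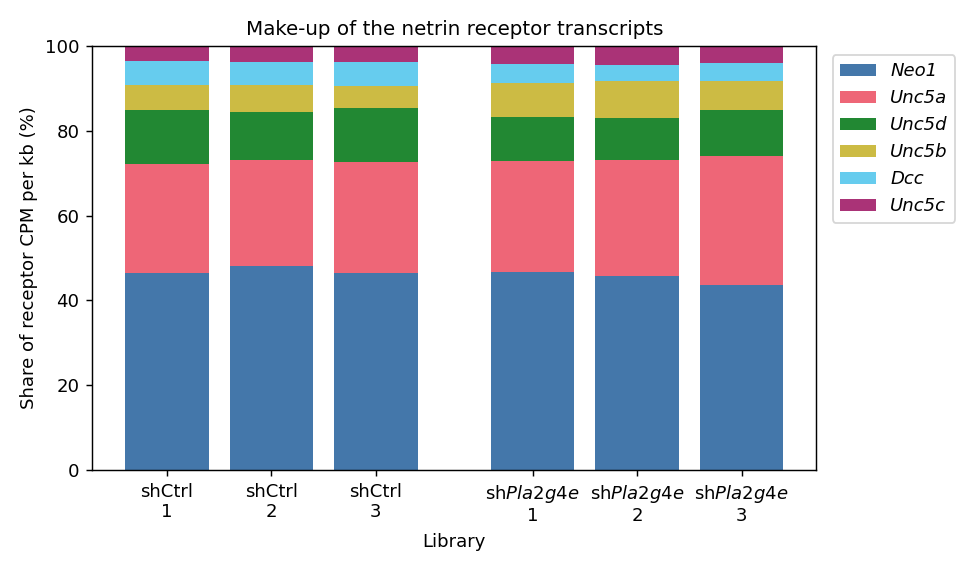
Share of each receptor in the summed CPM per kb of the 6 netrin receptors, 1 bar per library. The *Dcc* segment (light blue) narrows from 5.45 to 5.68% in shCtrl to 3.86 to 4.51% in sh*Pla2g4e*, and the *Unc5b* segment (yellow) widens.

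The levels of *Dcc* and *Unc5d* were the most alike of any 2 of the 9 genes over the 6 libraries. The measure is the root mean square difference between log2 CPM profiles that were each centred on their own mean, and it was 0.10 for this pair, against 0.49 for *Dcc* and *Ntn1*, the least alike. Over the 10907 others of the better expressed genes, those nearest to *Dcc* were *Myo16*, an unconventional myosin (0.043), *Slc36a1*, an amino acid transporter of lysosomes (0.045), and *Slc8a1*, a sodium-calcium exchanger (0.069), where the median gene stood at 0.52. Among the nearest to *Unc5d* were *Arhgap44* (0.038) and *Adcy1* (0.039), and nearest to *Neo1* were *Kcnma1*, *Sorcs2* and *Hnrnpul2* (0.029 to 0.033). *Unc5a* was nearest to *Hars*, *Pcdh10* and *Mapk8ip2* (0.029 to 0.037), *Unc5c* to *Atp9a*, *Pdgfa* and *Syn2* (0.022 to 0.031). For *Ntn4* the nearest were the cationic amino acid transporter *Slc7a2* (0.043), *Tuba1b* (0.075), whose reads are less certain because tubulin genes resemble each other, and *Nacc2* (0.078). Each of the genes named here had a log2 fold change below 0, which the measure favours.

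The 9 genes also differ in size and in their matches to the guide, properties that the choice by symbol did not use. Genes that span over 100 kb were called lower more often, 15.2% of 1834 better expressed genes, than those of 20 to 100 kb (7.09% of 4751) or under 20 kb (4.95% of 4323). Of the 9 genes 6 span over 100 kb, and 5 of these 6 were down-regulated, the exception being *Ntn1* with 191460 bases. *Dcc* spans 1097436 bases, *Unc5d* 572920 and *Unc5c* 369709. *Unc5a*, at 56608 bases, was down-regulated, and *Unc5b*, at 68989 bases, was not.

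By the GTGGCCA match, genes with a mean of at least 8 CPM were called lower in 4.11% of 6526 cases without a match, in 8.17% of 2300 with a match in the coding sequence but not in the 3′ UTR, and in 21.6% of 1650 with a match in the 3′ UTR. The 3′ UTRs of these classes differed in length, with medians of 1182, 1182 and 2494 bases. Both genes of the family with a 3′ UTR match in their longest coding transcript, *Ntn4* and *Unc5c*, were down-regulated, though not all of their annotated coding transcripts hold it. Of the 4 with a match in the coding sequence only, *Dcc*, *Unc5a* and *Unc5d* were down-regulated and *Unc5b*, with 2 matches, was not. Of the 3 without a match, *Neo1* was down-regulated and *Ntn1* and *Ntn3* were not. The longest run of bases shared with the sh2 target was 11 in *Unc5c*, a length that 3.23% of genes reach, and 7 to 9 in the other genes. The part of the guide's seed in these differences was not tested.

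Beyond the 9 genes, a list of 56 genes of netrin signalling was followed, and all 56 had enough reads to be tested. Of these, 42 were lower and 14 higher in sh*Pla2g4e* cultures, and their median change was −0.13 on the log2 scale. Among all genes tested 46.5% were lower, and among the better expressed genes 54.6%. Of the 56, 6 (10.7%) were down-regulated and none was up-regulated, where 4.00% of all genes tested and 7.61% of the better expressed ones were called lower. When the model held the replicate number as a block, 17 of the 56 were down-regulated and none was up-regulated, where 9.02% of all genes were called lower. The share with the block was not worked out for the better expressed genes alone. The list fell into ligands, partner receptors, cytoplasmic effectors, and genes of degradation, cleavage and death signalling.

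Among 10 other ligands, 8 were lower and 1 was down-regulated. *Ntng1*, which encodes netrin-G1, a membrane-anchored relative that does not bind DCC, had 9.70, 8.25 and 9.81 CPM in shCtrl and 4.81, 3.70 and 5.71 CPM in sh*Pla2g4e* libraries. The groups did not overlap (−0.97 on the log2 scale, adjusted p = 0.00226 in edgeR), and the call was lost without shCtrl replicate 1 (adjusted p = 0.0114), shCtrl replicate 3 (0.0108) or sh*Pla2g4e* replicate 2 (0.0107). *Rgma* and *Rgmb*, the RGM ligands of neogenin, had log2 fold changes of −0.04 and −0.12 and were not called, and are named here after their values were seen. Both genes with higher values had few reads and are likewise named after their values were seen. *Ntn5*, a netrin gene, had 4, 2 and 4 reads in shCtrl and 16, 11 and 14 reads in sh*Pla2g4e* libraries, higher without overlap (2.01 on the log2 scale) but short of the threshold (adjusted p = 0.0611 in edgeR). *Hjv* had no read in shCtrl libraries and 6, 0 and 2 reads in sh*Pla2g4e* libraries. With the replicate block 4 of the 10 ligands were down-regulated, *Ntng1*, *Flrt1* (−0.46), *Flrt2* (−0.29) and *Ntng2* (−0.30), and DESeq2 called 2 lower.

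Of 8 partner receptors 2 were down-regulated. *Lrrc4*, a postsynaptic partner of netrin-G2, had 96.9, 93.3 and 84.2 CPM in shCtrl and 60.4, 57.3 and 61.3 CPM in sh*Pla2g4e* libraries, with no overlap (log2 fold change −0.62, adjusted p = 1.29e-04 in edgeR). *L1cam*, an adhesion molecule of axons, had 431, 391 and 367 CPM in shCtrl and 282, 272 and 257 CPM in sh*Pla2g4e* libraries, again with no overlap (−0.55, adjusted p = 3.64e-04). *Dscam*, another netrin receptor, named after its value was seen, had a log2 fold change of −0.14 (adjusted p = 0.443).

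Of 28 cytoplasmic effectors 22 were lower and 3 were down-regulated, against 9 with the replicate block and 7 with DESeq2. Over all 21876 genes tested DESeq2 called 1210 lower. *Src*, a tyrosine kinase that acts below DCC and UNC5, had 96.3, 103.7 and 87.1 CPM in shCtrl and 63.0, 63.4 and 67.1 CPM in sh*Pla2g4e* libraries (log2 fold change −0.57, adjusted p = 3.25e-04 in edgeR). *Pitpna*, a phosphatidylinositol transfer protein that binds DCC, had 367, 375 and 351 CPM in shCtrl and 258, 233 and 255 CPM in sh*Pla2g4e* libraries (−0.55, adjusted p = 2.06e-04). For both genes every sh*Pla2g4e* library lay below every shCtrl library. *Cttn*, which encodes the actin-binding protein cortactin, had 237, 229.5 and 222 CPM in shCtrl and 180.2, 177 and 176 CPM in sh*Pla2g4e* libraries (−0.37, adjusted p = 0.00344), a small difference with little spread, which was lost as a call in 4 of the 6 fits without 1 library (adjusted p 0.0140 without shCtrl replicate 1, 0.0270 without shCtrl replicate 2, and 0.0184 and 0.0135 without sh*Pla2g4e* replicates 1 and 2). The small GTPases *Rac1*, *Cdc42* and *Rhoa*, named after their values were seen, had log2 fold changes of −0.11, 0.09 and −0.08 and were not called. The 6 effectors that the block added were the kinase genes *Fyn* (−0.28), *Ptk2* (−0.29) and *Mapk3* (−0.32), the Rac exchange factor gene *Tiam1* (−0.32), the actin regulator gene *Enah* (−0.25) and the phosphatase gene *Ptpn11* (−0.27), with adjusted p values in edgeR of 7.95e-05 (*Mapk3*) to 0.00154 (*Enah*).

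None of the 10 genes of degradation, cleavage and death signalling was called by edgeR or by limma after voom, DESeq2 called 1 lower, and their median log2 fold change was −0.07. At an unadjusted p under 0.05 in edgeR 3 were lower and 1 was higher. Many genes pass this cut, since *Trim67*, with an unadjusted p = 0.0456 in edgeR, stood at rank 5429 of the 21876 genes tested. With the replicate block 2 of them were down-regulated, *Dapk1* (log2 fold change −0.30), a kinase that UNC5B uses in death signalling, and the ubiquitin ligase gene *Trim67* (−0.31).

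**Figure D5:**
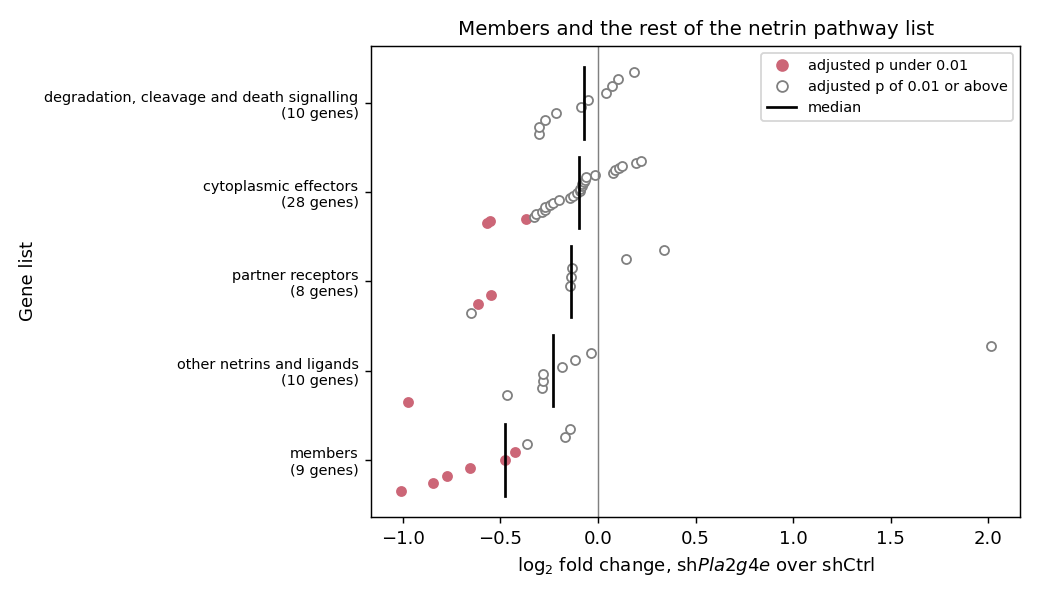
Log2 fold changes, sh*Pla2g4e* over shCtrl, of the 9 genes (members) and of the 4 groups of the netrin signalling list; red filled points had an adjusted p under 0.01 in edgeR, open grey points did not, and black lines are medians. The median of the 9 genes is −0.48 and that of the 56 listed genes −0.13; *Hjv*, without reads in shCtrl, is not drawn, and the open point near 2 is *Ntn5*, under 1 CPM in every library.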

How the data were processed

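Poly(A) RNA of 6 cultures was sequenced after stranded library preparation (TruSeq). The authors aligned reads with STAR 2.7.0d and deposited raw counts of reads on exons per gene from featureCounts 1.6.0, without normalization (tools per the labels). The file headers name GENCODE release 28 on GRCm39, which gives gene positions and exon lengths here, whereas the methods name mm10 and an older release. The recorded counting command has no strand or read-pair option. Symbols, transcripts and guide matches came from GENCODE release 21 (GRCm38), through 52081 of 55357 identifiers. The guide is from the study's oligonucleotide list.

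Groups were compared with edgeR 4.0.16 in R 4.3.3 (TMM, quasi-likelihood test, Benjamini-Hochberg threshold 0.01) over 21876 genes, each with 6 reads or more in some library. Alternatives were limma 3.58.1 after voom (the test of the study), DESeq2 1.42.0, other scalings and filters, the robust fit, a threshold of 0.05, a replicate block and leaving out each library. The fits were tested on simulated data. Log2 CPM used a prior count of 2. Libraries of the same number deviated together from their group means (r = 0.392, 0.189 and 0.461 over 10908 genes, against −0.393 to 0.108 for different numbers), which meets the criterion set for pairing. Deviations from a group mean sum to 0 within the group. The values for different numbers are therefore not independent of those for the same number. The main test has no block, and values from the fit with the replicate block stand beside it where a call or count changed. Between 17054717 and 23570180 reads were counted per library, and no pair of libraries differed by less than sampling noise. At most 0.822% of the 50-base stretches of any of the 9 transcripts occur in another gene.

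The 9 genes and the gene lists were chosen with earlier results of these data known. Named genes are the 9, called genes of the signalling list, the 3 nearest profiles of each called gene, cell type markers and *Pla2g4e*, and others are marked in the text. Some genes that this rule picks are not reported here.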

Additional observations from a re-analysis of the deposited data

How the results depend on the processing

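Under 11 alternatives and 6 fits without 1 library, all 170 log2 fold changes of the 9 genes and *Pla2g4e* were below 0. *Dcc*, *Neo1*, *Ntn4*, *Unc5d* and *Pla2g4e* passed the threshold in every one. Between 4 and 6 of the 9 genes were called. *Unc5c* lost its call with upper-quartile scaling (log2 fold change −0.39) and library size alone (−0.35), and over the fits without 1 library it ranged from −0.50 to −0.37 and *Unc5a* from −0.55 to −0.42. The cause was not tested. In the signalling list, 17 genes were called with the replicate block, 12 with DESeq2, 10 with no filter and 13 at a threshold of 0.05, in place of 6. Over all genes, 1419 were called, 3395 with the replicate block, 1895 with DESeq2, 2349 with no filter, 2813 at 0.05 and 695 to 1613 without 1 library. The block changed no call of the 9 genes. Of called genes, 61.7% were lower, and 43.3% when libraries were scaled by size alone. DESeq2 gave no adjusted p for 5090 genes. A match of 6 bases in place of 7 was held by all 9 genes (75.2% of genes), and the 6 with a 7-base match were as many when every coding transcript was searched. With 129 to 186 reads per library, *Ntn3* is the least precisely measured of the 9 genes.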
